A study of Mus musculus with 18 samples.

Results

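The expression level of each gene in p53null acute myeloid leukemia (AML) was set against its level in p53WT AML of the same oncogene combination. The question was how the 2 leukemias differed in level, and not how they responded to the drug. The rule joined by Ensembl identifier the mean level columns of the deposited p53null and p53WT tables at 10 h. Of the 18 samples of the series, 12 lie behind these 2 tables, and 11879 genes had a row in both, of 13787 genes in any of the 3 deposited tables. All groups were MLL/ENL Nras AML of C57BL/6 origin, grown by syngeneic transplant. The mice had received vehicle or CX-5461, which blocks transcription of ribosomal RNA genes by RNA polymerase I (Pol I), and the GFP-positive cells of their bone marrow were isolated by flow sorting. The p53WT groups at 10 h (3 vehicle and 3 CX-5461 samples) and the p53null groups at 10 h (3 and 3) were the 2 sides of the comparison. The p53WT samples at 72 h (3 and 3) served as another p53WT reference. The labels give no age, no dose and no number of animals or of independent leukemias per genotype, and they do not say which part of Trp53 is missing. At 10 h the sample titles bear a tag that differs by genotype, and neither tag is used at 72 h, so that the genotype and a leukemia line particular to each genotype cannot be told apart. Where nothing says that samples came from separate mice, the spread between libraries may also be technical.

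The p53 protein, the product of Trp53, is a transcription factor that is stabilised by DNA damage, oncogene activity and disturbed ribosome production, and that switches on genes for cell cycle arrest, apoptosis and repair. Its own negative regulator, Mdm2, is among its targets. MLL fusion proteins such as MLL/ENL hold the Hoxa genes and their cofactor Meis1 active in myeloid progenitors, activated Nras adds signalling through the ERK pathway, and loss of p53 in such leukemias is known for resistance to therapy.

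Levels are given in CPM, the count of a gene scaled to a common library total. For p53WT AML at 10 h the counts of the 6 libraries were deposited and each library's value is given. For p53WT AML at 72 h and for p53null AML the authors' deposited mean over 6 libraries is the only value, so no spread, interval or test of the genotype difference could be had and all differences below are descriptions. A difference is p53null minus p53WT on the log2 scale of the authors' deposited mean levels, and a gene is called higher or lower where that difference reaches 2-fold. The 6 p53WT libraries held 21578685 to 48118513 counts each, and the depth behind the other means is unknown. Of these 6, vehicle libraries 1 and 2 stood apart with high erythroid markers, and some results below rest on them. Without both, 1013 genes were higher and 824 lower in p53null AML, against 872 and 840 with them. Only 1 vehicle library then remains beside the CX-5461 libraries on the p53WT side. Values without these 2 libraries therefore also shift towards the level with CX-5461, at which 1036 genes were higher and 819 lower. The drug response and the trait of these libraries cannot be told apart there. In sorted bulk RNA, fewer cells of a type and less RNA per cell cannot be told apart.

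Over all 11879 genes, 872 were at least 2-fold higher in p53null AML (7.34%) and 840 at least 2-fold lower (7.07%). The median difference was -0.07, with quartiles of -0.37 and 0.23. Against the p53WT 72 h means, 751 of 11712 genes were higher (6.41%) and 652 lower (5.57%). The 2 p53WT means differed from each other by 2-fold or more at 246 genes in each direction (2.1% higher and 2.1% lower at 72 h). A stricter count took genes that were 2-fold apart from both p53WT means in the same direction and whose p53null mean also lay outside all 6 p53WT libraries at 10 h. It held 526 higher genes (4.49%) and 547 lower genes (4.67%). Counts of list members below are to be read against these shares, which hold for all genes. The 2 contrasts share the p53null libraries, so that they are not independent of each other. Outside the range of the 6 p53WT libraries lay the p53null means of 66.8% of the genes, 3320 above and 4621 below, which is to be read with the small spread of those libraries and the separate normalization of the tables.

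**Figure D1:**
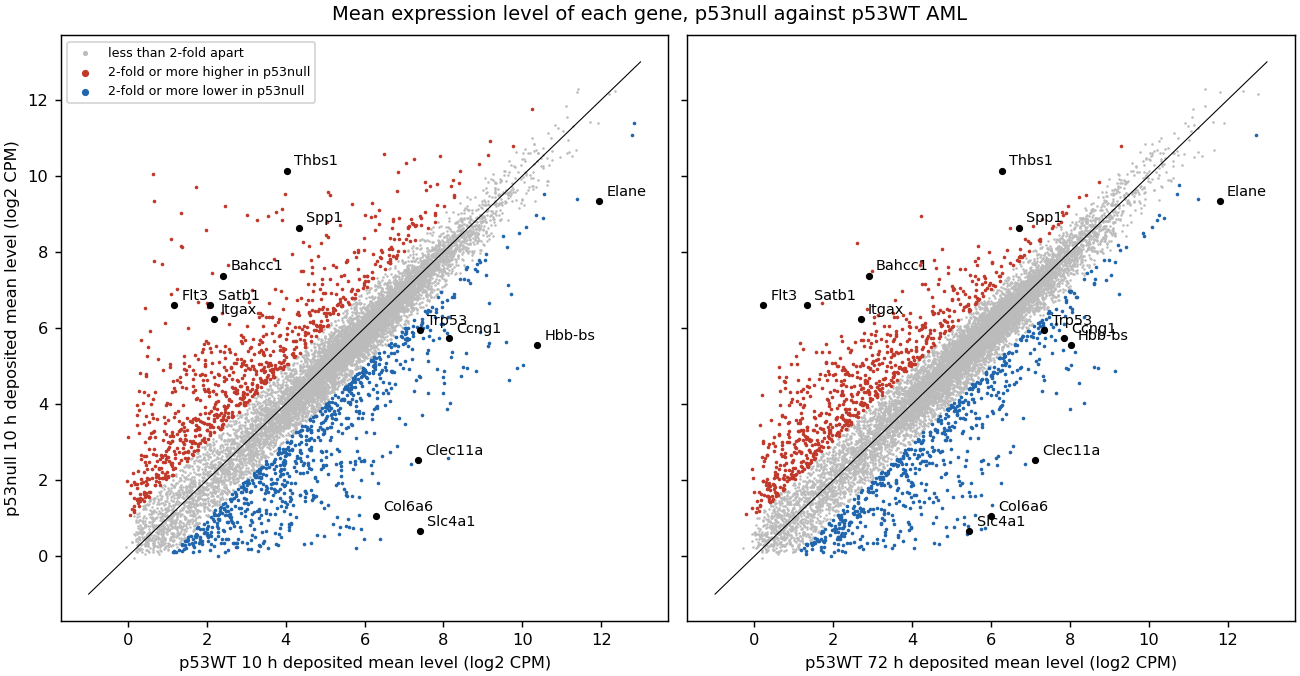
Deposited mean level of each gene in p53null AML at 10 h (vertical axis, log2 CPM) against p53WT AML at 10 h (left) and at 72 h (right), for the 11712 genes in all 3 tables; each point is a gene and the line marks equal levels. Most genes lie near the line, and Thbs1, Flt3 and Bahcc1 stand far above it and Clec11a and Col6a6 far below it in both panels.

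For sequences with near-identical copies the p53WT 10 h table stood apart from both other tables. Among 574 pseudogenes, 128 were higher in p53null than in p53WT AML at 10 h, but only 32 were higher than in p53WT AML at 72 h, while 100 were higher in p53WT AML at 72 h than at 10 h. Rpl11, which encodes a ribosomal protein that binds and restrains MDM2, also stood apart in that table, in the opposite direction. It stood at 273 CPM in p53WT AML at 10 h, at 57.96 CPM in p53null AML and at 26.2 CPM in p53WT AML at 72 h, so that the direction depended on the reference (-2.24 against 10 h and 1.15 against 72 h). Of 77 cytosolic ribosomal protein genes, listed after values had been seen, 13 were higher and 18 lower against 10 h. Against 72 h 7 were higher and none lower. Between the p53WT means 11 were higher and 26 lower at 72 h. Ribosomal protein genes and pseudogenes share sequence, and the sources used here do not give how reads with several matches were counted. Values against the 72 h reference are therefore set beside those against 10 h. Among protein-coding genes with a row in each of the 3 tables, 638 of 10475 were higher and 701 lower than in p53WT AML at 10 h.

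Trp53 itself was lower in p53null AML and not absent. The 3 p53WT vehicle libraries held 168, 142 and 159.6 CPM and the 3 CX-5461 libraries 183, 182 and 180.1 CPM, with a mean over the 6 of 169 ± 16.2 CPM (SD, n = 6). The authors' deposited mean in p53null AML was 61.5 CPM, below every p53WT library, against 163 CPM in p53WT AML at 72 h (differences of -1.46 and -1.41). The table gives no value per exon, and a transcript without the deleted part could still be counted, so this level alone does not check the label. The 15 genes in both tables on each side of Trp53, in the gene order of GENCODE vM21 (GRCm38), held 3 that were higher and 2 that were lower, with a median of -0.03. The higher ones were Chd3, a chromatin remodeller (7.38 CPM in p53WT, 49.0 CPM in p53null AML), Kdm6b, a histone demethylase (47.9 and 102.7 CPM), and Zbtb4 (5.48 and 14.7 CPM). Tmem102 (6.72 and 1.27 CPM) and Tnk1 (5.68 and 1.88 CPM) were the lower ones.

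Known p53 target genes were more often lower than higher in p53null AML in the mean over 6 libraries, and less so at vehicle level. Of 57 targets on 3 lists (arrest and feedback, apoptosis, repair and metabolism), 43 were in both 10 h tables, 6 in the p53WT table alone, none in the p53null table alone and 8 in neither. Beside the 11879 genes in both tables, 800 genes of any kind were in the p53WT table alone and 982 in the p53null table alone. Among the 43, 12 were lower and 3 higher, against the 7.07% and 7.34% of all genes, and the median was -0.29. The p53WT mean includes the CX-5461 libraries. In the authors' deposited tables, 24 of the 43 passed a false discovery rate of 0.05 with CX-5461 in p53WT AML, 21 of them upwards, and none did in p53null AML. Of all genes listed, 1319 of 12679 passed in p53WT AML and only 24 of 12861 in p53null AML. The lack of calls in p53null AML is thus not particular to the targets. Vehicle levels were therefore worked out for both genotypes from the deposited mean and fold change, which recovered the measured p53WT vehicle means with a median error of 0.003 on the log2 scale. At vehicle level 4 targets were lower and 4 higher, with a median of -0.10, against 7.54% lower and 6.96% higher of all genes at that level. Against the 72 h mean 7 were lower and 4 higher (median -0.14). The 4 that were lower at vehicle level were Ccng1, Trp53inp1, Btg2 and Fas. The p53WT vehicle level includes vehicle libraries 1 and 2, and it was not worked out without them. Against the p53WT vehicle level at 72 h, Ccng1 and Fas remained 2-fold lower (-1.72 and -2.31), and Trp53inp1 and Btg2 did not (-0.45 and -0.56).

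Among the targets of arrest and feedback, Ccng1, a cyclin that partners PP2A and is a direct p53 target, differed most. It measured 164, 176 and 179 CPM with vehicle, 382, 408 and 390.3 CPM with CX-5461, 52.97 CPM in p53null AML and 232 CPM in p53WT AML at 72 h. Every p53WT library lay at least 3-fold above the p53null mean, and the difference was -2.42 (-1.74 at vehicle level). Trp53inp1, which promotes p53 phosphorylation and cell death, held 43.4, 69.9 and 35.7 CPM with vehicle, 84.2, 93.7 and 84.9 CPM with CX-5461 and 19.2 CPM in p53null AML (-1.83, and -1.29 at vehicle level). Its vehicle library 3, at 35.7 CPM, lay less than 2-fold above the p53null mean. Btg2, an antiproliferative gene, stood at 38.6 to 85.8 CPM over the 6 p53WT libraries and 19.4 CPM in p53null AML, lower at vehicle level as well (-1.54) and by less than 2-fold against the 72 h mean (-0.88). Cdkn1a, which encodes the cell cycle inhibitor p21, showed the other pattern. Its vehicle libraries held 51.2, 55.3 and 48.7 CPM and its CX-5461 libraries 232, 262 and 247 CPM, while the p53null mean was 55.1 CPM. The p53null level thus lay within the p53WT vehicle libraries, and the difference of -1.43 in the mean became 0.11 at vehicle level. Mdm2, the ubiquitin ligase that degrades p53, likewise lay at 87.5, 101 and 84.003 CPM with vehicle, 149, 151 and 140.3 CPM with CX-5461 and 96.7 CPM in p53null AML (-0.29, and 0.10 at vehicle level).

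Several targets had a row in the p53WT table alone, in which all listed genes had over 1 CPM in 3 or more of the libraries. Zmat3, an RNA-binding p53 target, was at 10.2, 9.2 and 10.96 CPM with vehicle and 27.9, 33.8 and 35.97 CPM with CX-5461, and at 25.03 CPM in p53WT AML at 72 h. The lowest level listed in the p53null table is 0.924 CPM, below every value of Zmat3 given here, but the sources used here do not give how genes were chosen for that table. Phlda3, an AKT inhibitor, held 2.6, 1.89 and 2.24 CPM with vehicle and 30.3, 34.3 and 33.8 CPM with CX-5461. Plk2 had an authors' deposited mean of 5.7 CPM and a log2 fold change of 3.73 with CX-5461. Its mean thus rests mostly on the CX-5461 libraries and is not a vehicle level. Dapk1 (mean 7.69 CPM, log2 fold change -0.08), Mgmt, a DNA repair enzyme (19.96 CPM, 0.55), and Zfp365 (1.24 CPM) made up the rest.

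Of the apoptosis targets, Fas, the death receptor, was furthest below. The p53WT libraries held 13.7, 17.6 and 12.1 CPM with vehicle and 14.6, 16.3 and 13.5 CPM with CX-5461, against 2.51 CPM in p53null AML and 14.01 CPM in p53WT AML at 72 h. The authors' deposited fold change with CX-5461 in p53WT AML was 0.03 on the log2 scale, and the difference between genotypes was -2.55 in the mean and -2.51 at vehicle level. Bbc3, which encodes the BH3-only protein PUMA, measured 7.998, 9.77 and 8.73 CPM with vehicle, 26.8, 28.8 and 29.3 CPM with CX-5461 and 5.08 CPM in p53null AML. Bax, the pore-forming effector, measured 92.6, 83.6 and 88.6, then 168, 178 and 175, and 64.5 CPM in the same order. Both p53null means lay below all 6 p53WT libraries, yet at vehicle level the differences were -0.66 and -0.42, and against the 72 h mean -0.71 and -0.78. Tnfrsf10b, a TRAIL receptor, held 7.06, 5.58 and 6.8 CPM with vehicle, 20.01, 21.7 and 17.5 CPM with CX-5461 and 4.91 CPM in p53null AML (-1.42, and -0.29 at vehicle level). Ei24 was near 2-fold lower at vehicle level (-0.98; 115 and 45.7 CPM in the means). Slc19a2, a thiamine transporter on the repair and metabolism list, held 41.97 CPM in p53WT and 11.2 CPM in p53null AML, with a vehicle-level difference of -0.64. Dcxr (-1.57) and Gtse1 (-1.07) were the remaining lower targets. Higher in p53null AML were Trp53i11 (1.16 to 8.56 CPM over the p53WT libraries and 17.8 CPM in p53null AML), Sesn2, a stress-induced inhibitor of mTORC1 that also answers to other stress pathways (8.86 to 43.7 and 61.4 CPM), and Plk3 (6.36 to 11.8 and 21.9 CPM). Ddb2, a nucleotide excision repair gene, also lay above all p53WT libraries (6.6 to 8.95 and 13.5 CPM), with a difference of 0.91.

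**Figure D2:**
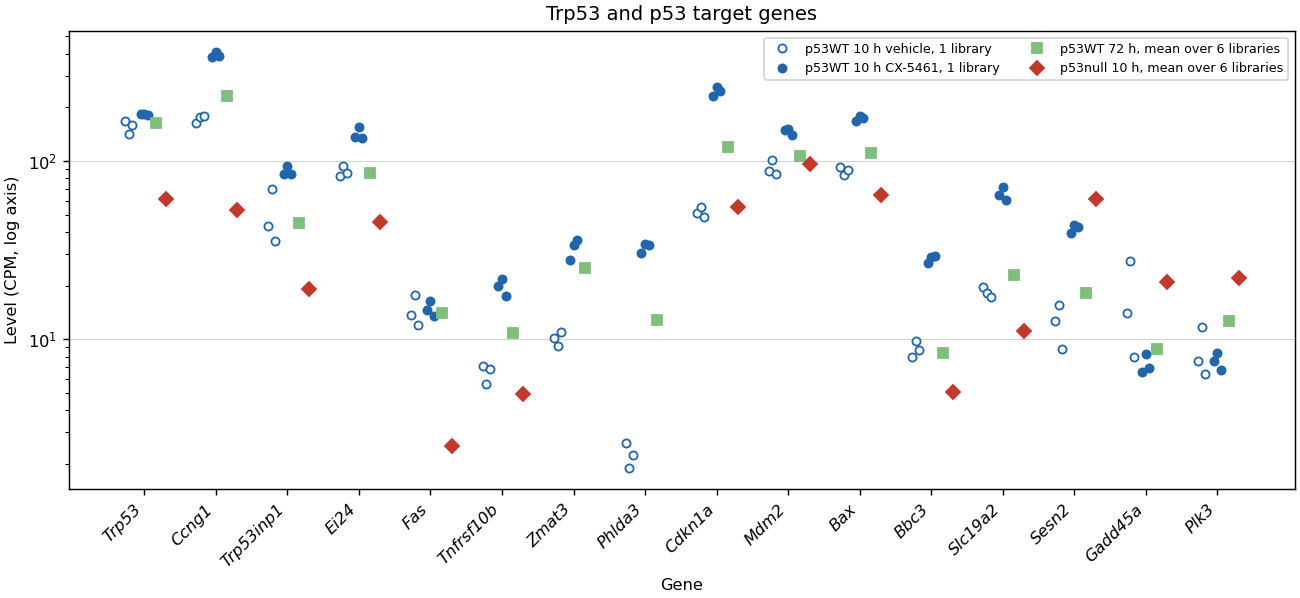
Level (CPM, log axis) of Trp53 and 15 p53 target genes; open and filled circles are single p53WT 10 h libraries with vehicle and CX-5461, squares the deposited p53WT 72 h means and diamonds the deposited p53null means, with no diamond where the p53null table has no row (Zmat3, Phlda3). The diamonds of Ccng1, Trp53inp1 and Fas lie below all circles, those of Cdkn1a and Mdm2 among the open circles, and that of Sesn2 above all circles.

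Among regulators upstream of p53, 17 of 20 were in both tables, of which 3 were lower and 1 higher, with Trp53 and Rpl11 among the lower ones. Against 72 h 2 were lower and 2 higher, and Rpl11 was then among the higher ones (1.15). Cdkn2a, the locus of p16INK4A and of ARF, an inhibitor of MDM2, held 8.77, 16.4 and 19.9 CPM with vehicle, 8.99, 10.6 and 12.5 CPM with CX-5461 and 3.77 CPM in p53null AML, below all 6 libraries (-1.77, and -1.27 against 72 h). Hipk2, a kinase that phosphorylates p53, was the higher one against 10 h, at 37.03 to 45.2 CPM over the p53WT libraries and 108 CPM in p53null AML. The kinases Atm, Atr and Chek1, the ligase subunit Mdm4 and the deubiquitinase Usp7 differed by -0.34 to 0.01. The kinase Chek2 was lower by less than 2-fold, at 42.6 CPM in p53WT and 24.7 CPM in p53null AML (35.4 CPM in p53WT AML at 72 h).

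The HOXA cluster and MLL fusion target list did not lean in 1 direction. Of 21 members in both tables, 2 were higher and 5 lower, with a median of 0.00 (-0.01 against 72 h), and each of these 7 met the stricter count as well. The HOXA genes themselves were close. Hoxa9, the homeobox factor at the centre of MLL-driven leukemia, measured 132, 134 and 136 CPM with vehicle, 143, 131 and 133 CPM with CX-5461 and 156 CPM in p53null AML (0.22), while Hoxa7 differed by 0.07 and Hoxa10 by -0.68. Meis1, its cofactor, was lower, at 137, 110.4 and 117 CPM with vehicle, 145, 139.5 and 131 CPM with CX-5461, 34.9 CPM in p53null AML and 140.1 CPM in p53WT AML at 72 h. Myb, a progenitor transcription factor, held 1123 to 1860.3 CPM over the 6 p53WT libraries and 476 CPM in p53null AML, and Zeb2 and Pbx3 were also lower (-1.36 and -1.06). The higher members were Mef2c, a transcription factor of lymphoid and myeloid progenitors, and Satb1, a chromatin organiser. Mef2c measured 9.6, 17.8 and 11.3 CPM with vehicle, 6.96, 7.12 and 10.2 CPM with CX-5461 and 81.4 CPM in p53null AML. Satb1 measured 9.02, 11.1 and 0.895, then 1.58, 1.01 and 1.15, and 96.8 CPM, with 2 of the vehicle libraries well above the other 4 (4.51, and 6.38 without those 2). Myc lay at 153 to 243 CPM over the p53WT libraries and 266 CPM in p53null AML (0.34).

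Stem and progenitor markers also lay on both sides, with 5 higher and 3 lower of 19, and a median of 0.22 (6 and 1, and 0.19, against 72 h). Flt3, the receptor tyrosine kinase of early progenitors, differed most. Its vehicle libraries held 3.04, 6.94 and 0.671 CPM and its CX-5461 libraries 1.002, 0.413 and 0.851 CPM, against 97.2 CPM in p53null AML and 1.16 CPM in p53WT AML at 72 h. All p53WT values were thus below 7 CPM, and the mean was 43.2-fold higher in p53null AML (5.43, and 7.05 without vehicle libraries 1 and 2). Cd34, a surface sialomucin of progenitors, measured 18.7, 16.03 and 11.4 CPM with vehicle, 11.2, 12.8 and 14.9 CPM with CX-5461 and 75.6 CPM in p53null AML, with no overlap (2.41, and 2.39 against 72 h). Ly6a, which encodes Sca-1 (5.88 to 20.3 CPM over the p53WT libraries and 51.6 CPM in p53null AML), the transcription factor Gata2 (1.39 to 8.56 and 25.98 CPM) and the RNA-binding protein Igf2bp2 (7.07 to 14.1 and 77.7 CPM) were also higher. Kit, the stem cell factor receptor, was the other way round, at 134, 101 and 124 CPM with vehicle, 155, 134 and 134 CPM with CX-5461 and 52.3 CPM in p53null AML. Its level in p53WT AML at 72 h was 79.9 CPM, which left a difference of -0.61 against that reference and -1.31 against 10 h. Cd27, a TNF receptor family member of stem cells and lymphocytes, stood at 12.9 to 21.7 CPM over the p53WT libraries and 1.81 CPM in p53null AML (-3.29).

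The genes of the primary (azurophil) granules, made at the promyelocyte stage, lay mostly lower in p53null AML. Of 12 members in both tables, 3 were lower and none higher, the median was -0.76 (3 lower, 1 higher and -0.64 against 72 h), and 9 of the 12 p53null means lay below all 6 p53WT libraries. Among all genes 4621 of 11879 lay below them. Elane, neutrophil elastase, held 4036, 3307 and 3746 CPM with vehicle, 4342, 4251 and 4176 CPM with CX-5461, 643 CPM in p53null AML and 3558 CPM in p53WT AML at 72 h. Prtn3, proteinase 3, held 2428 to 2798 CPM over the p53WT libraries and 673 CPM in p53null AML. Mpo, myeloperoxidase, held 5414 to 7918 CPM and 2157 CPM. The p53WT libraries of these 3 genes kept within a narrow range with and without drug, and the differences were -2.62, -1.98 and -1.72. Ctsg, Srgn and Ms4a3 were lower by less than 2-fold (-0.79, -0.82 and -0.72), and Serpinb1a and Ctsc were above all p53WT libraries (0.85 and 0.56).

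Myeloid lineage factors were mixed, with 4 higher and 2 lower of 23 and a median of 0.10 (5 and 2 of 22, and -0.16, against 72 h). Cebpd, a C/EBP factor of granulocytic maturation, held 102 to 149 CPM over the p53WT libraries and 33.2 CPM in p53null AML (-1.85), and Cebpb, which is induced in emergency granulopoiesis, differed by -1.01. Spi1, which encodes PU.1, and Cebpa, the granulocyte master regulator, were lower by less than 2-fold (-0.41 and -0.50). Egr1, an immediate early factor of the monocytic lineage, measured 4.26 to 23.5 CPM in p53WT and 51.7 CPM in p53null AML, and Id2 15.6 to 49.1 and 67.4 CPM. Irf4 had a row in the p53null table and not in the p53WT 10 h table (5.43 CPM).

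The genes of neutrophil maturation gave an answer that depended on the drug arm. Over the means 5 of 32 were higher and 3 lower, with a median of 0.42, but 25 of the 32 p53null means lay inside the range of the p53WT libraries. Among all genes 3938 of 11879 lay inside it. At vehicle level 3 were higher and 7 lower (median -0.12), and at CX-5461 level 22 were higher and 2 lower (median 1.43), against 8.72% higher and 6.89% lower of all genes at CX-5461 level. Without vehicle libraries 1 and 2 the median was 1.25. S100a9, a calprotectin subunit, shows the pattern. Its p53WT vehicle libraries held 3378, 6819 and 2551 CPM and its CX-5461 libraries 992, 1400.5 and 945 CPM, while the p53null mean of 4770.2 CPM lay among the vehicle libraries. Padi4, which citrullinates histones in neutrophils, was the only member 2-fold higher against both p53WT means and above all 6 libraries (32.1 to 94.7 CPM over the p53WT libraries, 233 CPM in p53null AML and 80.6 CPM in p53WT AML at 72 h). Olfm4, Hp and Il1b were lower against both p53WT means (-1.82, -1.44 and -2.32 against 10 h). Il1b rested on vehicle libraries 1 and 2, with a difference of -0.29 without them.

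Many antigen presentation genes were higher in p53null AML against both p53WT references. Of 20 genes of MHC class I and II in both tables, 10 were higher and none lower, with a median of 0.92 against 10 h and 1.52 against 72 h, and all 10 met the stricter count. The class II genes present peptides to CD4 T cells and need the transactivator CIITA. Cd74, the invariant chain, held 35.1, 89.9 and 10.3 CPM with vehicle, 7.25, 3.95 and 5.75 CPM with CX-5461, 176 CPM in p53null AML and 29.8 CPM in p53WT AML at 72 h. H2-Aa held 13.5, 38.4 and 4.7, then 2.9, 2.3 and 2.04, and 66.9 CPM. Both show the p53WT vehicle libraries 1 and 2 above the other 4 libraries and the p53null mean above all 6. Without those 2 libraries the median of the list was 0.95 and the difference of Cd74 was 4.69, against 2.79 with them. Ciita itself was in the p53null table (9.31 CPM) and not in the p53WT 10 h table, with 1.07 CPM in p53WT AML at 72 h. Of the nonclassical class I genes, H2-Q7 measured 36.97 to 195 CPM over the p53WT libraries and 489 CPM in p53null AML, and H2-Q6 11.3 to 88.1 and 301 CPM. These are members of a family with near-identical copies, so that the split of reads between them is uncertain. The classical gene H2-K1 was 1.02 higher on the log2 scale, H2-D1 0.54 and B2m 0.00, and Nlrc5, the class I transactivator, 1.15. The peptide-loading genes H2-DMa and H2-DMb1 lay below all 6 p53WT libraries, by less than 2-fold (-0.43 and -0.38).

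Interferon-stimulated genes as a list did not lean in 1 direction at 10 h, with 4 higher and 4 lower of 37 (median -0.15). Against the 72 h mean 14 of 35 were higher and 1 lower, while the p53WT means themselves differed, with a median of -0.88 for 72 h minus 10 h. Gbp2, Ifi203, Xaf1 and Ifitm3 were higher against both references (1.94, 1.58, 1.34 and 1.03 against 10 h), and Ifit2 was lower against both (-1.37). Rsad2 rested on 2 p53WT libraries, with 60.9, 216 and 18.3 CPM under vehicle and 7.88, 11.8 and 12.9 CPM under CX-5461, against 15.4 CPM in p53null AML. Its difference was -1.83 with all 6 libraries and 0.27 without vehicle libraries 1 and 2.

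Of 30 monocyte and macrophage genes 12 were higher and 4 lower in the mean, with a median of 0.70. Against 72 h the counts were 9 and 7 and the median 0.22. The counts also differed by drug arm, with 6 higher and 4 lower at vehicle level (median 0.33) and 16 and 2 at CX-5461 level (median 1.19). Itgax, which encodes CD11c, held 6.1, 8.56 and 2.15 CPM with vehicle, 3.16, 3.35 and 3.15 CPM with CX-5461, 75.3 CPM in p53null AML and 6.49 CPM in p53WT AML at 72 h. The monocyte chemokine receptors Ccr2 (39.1 to 79.4 CPM over the p53WT libraries and 187 CPM in p53null AML) and Cx3cr1 (3.26 to 9.75 and 25.03 CPM), and the lipid receptor Trem2 (0.765 to 2.41 and 11.4 CPM) were above all p53WT libraries. The complement genes C1qa, C1qb and C1qc and the mannose receptor Mrc1, which mark resident macrophages, were 2-fold higher in the mean (1.02 to 1.39) but lay inside the range of the p53WT libraries and below the 72 h mean (-1.77 to -0.47). Lower in p53null AML against both references were F13a1, a coagulation factor subunit of monocytes (-1.48), Vcam1 (-1.39) and Adgre1, which encodes F4/80 (-1.13). Of 28 cytokine receptor and adhesion genes 4 were higher and 1 lower. The lower one, the scavenger receptor Cd36, rested on vehicle libraries 1 and 2 (-2.70, and 0.81 without them). Itgb7, an integrin subunit, held 21.5, 38.2 and 27.4 CPM with vehicle, 12.3, 11.6 and 18.1 CPM with CX-5461 and 181 CPM in p53null AML, and Ccr1 16.7 to 45.2 and 126 CPM.

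**Figure D3:**
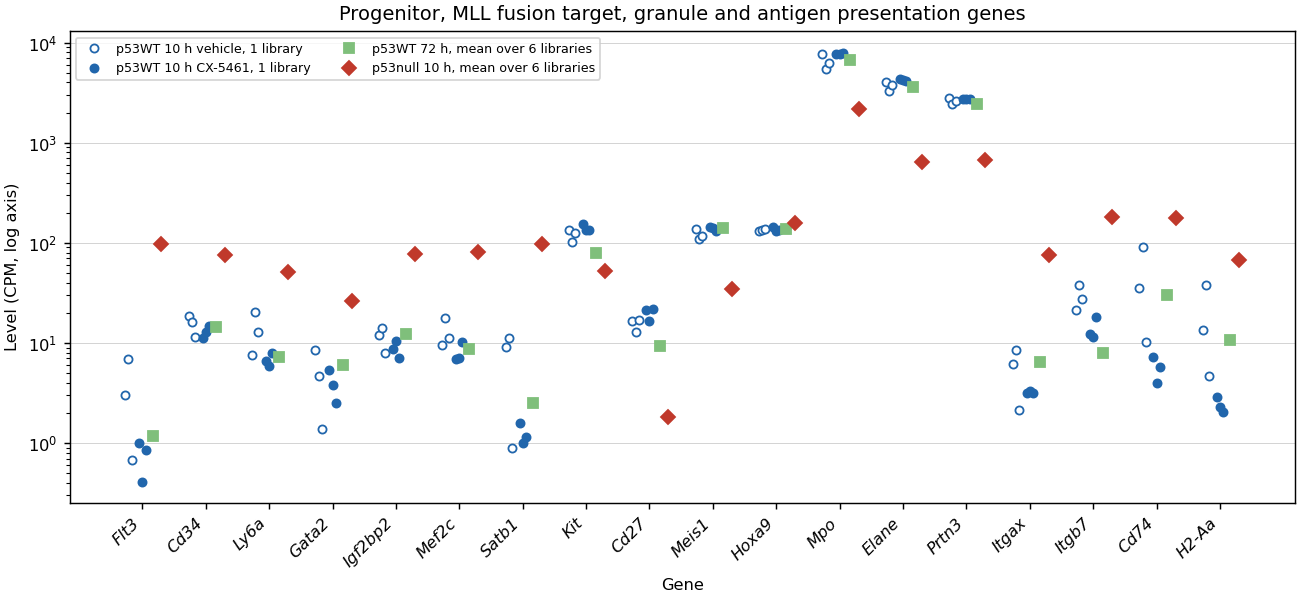
Level (CPM, log axis) of 18 progenitor, MLL fusion target, granule and antigen presentation genes; circles are single p53WT 10 h libraries (open, vehicle; filled, CX-5461), squares the deposited p53WT 72 h means and diamonds the deposited p53null means. The diamonds of Flt3, Cd34, Mef2c, Itgax and Cd74 lie above all p53WT values, those of Meis1, Mpo, Elane and Prtn3 below them, and Hoxa9 is close in all groups.

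The loci of the 2 oncogenes of the model were not alike. Nras measured 224, 220.3 and 232 CPM with vehicle, 231, 224 and 204 CPM with CX-5461, 524 CPM in p53null AML and 239 CPM in p53WT AML at 72 h, a difference of 1.24 (1.13 against 72 h). Kmt2a, the gene of MLL, held 291 to 398 CPM over the p53WT libraries and 314 CPM in p53null AML, and Mllt1, the gene of ENL, 138 to 167 and 163 CPM. Counts per gene do not separate an introduced copy from the mouse's own gene. Hras differed by less than 2-fold (0.43).

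The RAS and ERK list holds feedback phosphatases and inhibitors, transcription factors downstream of ERK and exchange factors that activate RAS family proteins. Of 17 in both tables, 4 were higher and none lower (median 0.36). Against 72 h 4 were higher and 1 lower (Dusp1, -1.07; median 0.37), at vehicle level 5 were higher and 2 lower, and a further 4 of the 21 on the list had a row in the p53null table alone. Etv4 and Etv5, transcription factors downstream of ERK, held 0.717 to 2.96 and 3.76 to 10.98 CPM over the p53WT libraries and 29.6 and 50.6 CPM in p53null AML. Dusp6, the phosphatase that inactivates ERK, held 82.7, 102 and 80.6 CPM with vehicle, 78.96, 82.7 and 74.7 CPM with CX-5461 and 233 CPM in p53null AML, and Dusp5 5.24 to 9.31 and 39.9 CPM. None of these 4 p53null means lay within the p53WT libraries, as was so for 66.8% of all genes. Spry4 (6.68 CPM), Fosl1 (3.37 CPM), Dusp4 (1.42 CPM) and Rasgrp1 (1.09 CPM) were listed in p53null AML alone, all at low levels. Spry2 and Rasgrp2 lay below all p53WT libraries (-0.90 and -0.76).

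Proliferation genes were nearly level. None of the 30 G2/M genes was 2-fold apart in either direction (median 0.18, range -0.38 to 0.52). Of 32 G1/S and replication genes 2 were higher and none lower, with a median of -0.23. Both were D-type cyclins, which carry growth factor signals to CDK4 and CDK6. Ccnd1 measured 33.1, 17.2 and 28.5 CPM with vehicle, 45.8, 57.1 and 53.6 CPM with CX-5461 and 142 CPM in p53null AML, and Ccnd2 36.6 to 58.9 and 217 CPM, while Ccnd3 was lower by less than 2-fold (-0.51). Bcl2, the antiapoptotic gene, was the only higher member of 19 in its family and the caspases, at 19.99 to 29.97 CPM over the p53WT libraries and 88.7 CPM in p53null AML, and Casp6 the only lower one (-1.06, and -0.93 against 72 h). No gene of the Pol I machinery, the target of the drug, reached 2-fold among 21 (median 0.10), although Taf1d did against 72 h (1.05), and none of the 40 ribosome biogenesis genes did (median 0.15, and 0.40 at vehicle level). Npm1 was the furthest up (0.79) and Dkc1 the furthest down (-0.86) among the latter. Of the glycolysis and hypoxia list 3 of 24 were higher and none lower (median 0.40), with Ddit4 (1.63), Slc2a1 (1.11) and Pfkp (1.03) past 2-fold. Against 72 h only Ddit4 was (1.87), with 0.63 and 0.95 for the other two.

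**Figure D4:**
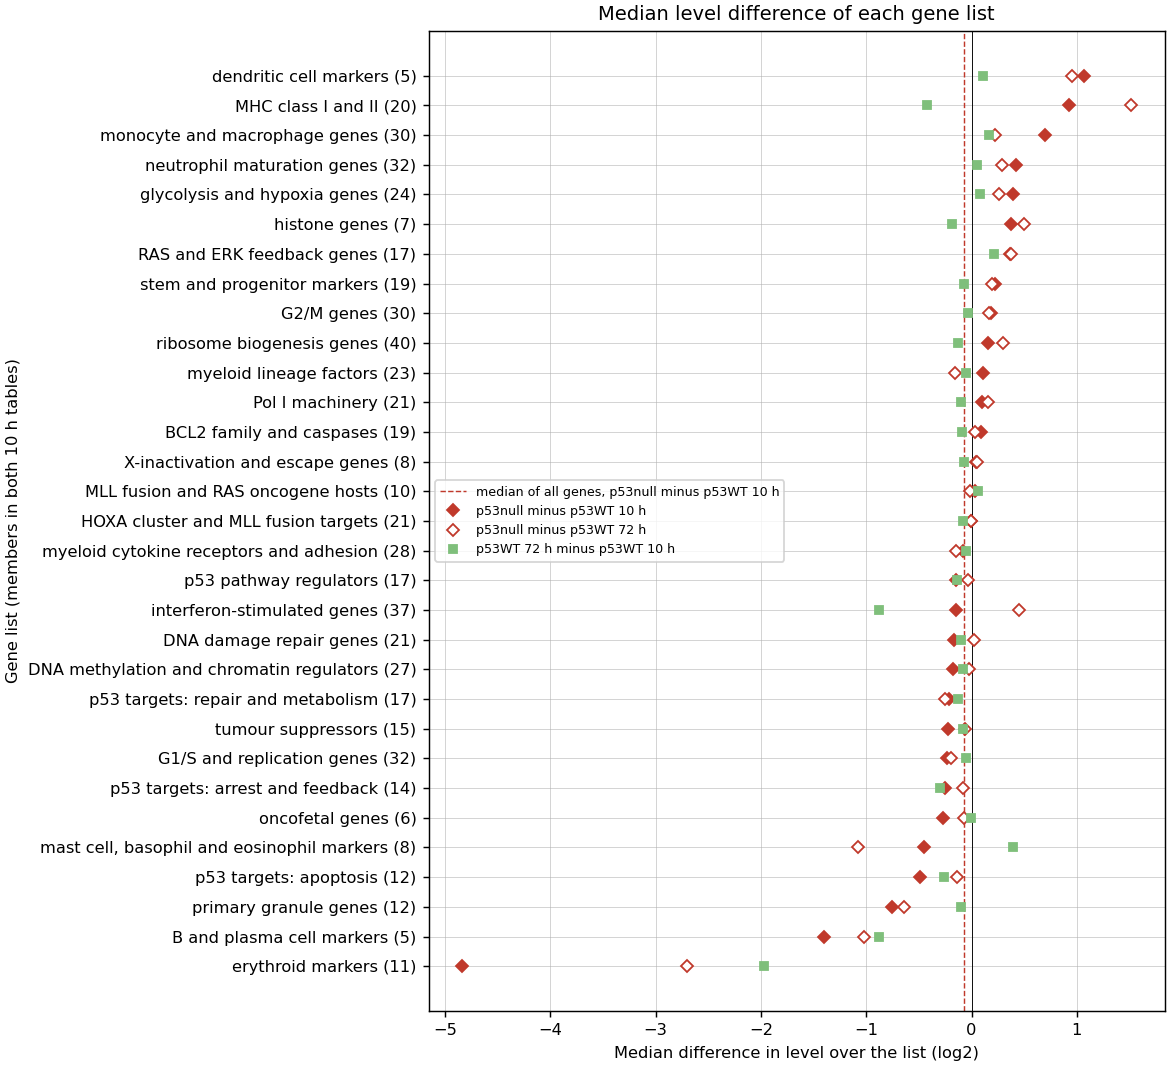
Median difference in level (log2) of the gene lists with 5 or more members in both 10 h tables; filled diamonds, p53null minus p53WT 10 h; open diamonds, p53null minus p53WT 72 h; squares, p53WT 72 h minus p53WT 10 h; numbers in parentheses count the members. MHC genes lie to the right of 0 against both p53WT references and primary granule genes to the left, while erythroid and B cell markers lie far left and also differ between the p53WT means.

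The largest differences were taken from genes at 10 CPM or more that lay outside all 6 p53WT libraries and were 2-fold apart from the 72 h mean where a row existed. Thbs1, the matrix glycoprotein thrombospondin 1, led the higher genes. Its p53WT vehicle libraries held 26.5, 24.5 and 4.79 CPM and its CX-5461 libraries 15.3, 19.2 and 7.96 CPM, against 1124 CPM in p53null AML and 77.6 CPM in p53WT AML at 72 h, a difference of 6.10 against 10 h and 3.86 against 72 h. Spp1, the secreted phosphoprotein osteopontin, stood at 12.4 to 28.3 CPM over the p53WT libraries, 104 CPM at 72 h and 398 CPM in p53null AML. Bahcc1, a chromatin reader, held 3.27 to 6.6 CPM and 166 CPM, and Fyn, a SRC family kinase, 1.16 to 12.6 and 100.5 CPM (4.64, and 6.09 without vehicle libraries 1 and 2). Further higher genes of this rule were Angptl2 (4.51), Nlrp1b, an inflammasome sensor (4.33), and Reep6 (0.448 to 1.89 CPM over the p53WT libraries and 17.05 CPM in p53null AML). Among the lower genes Clec11a, a growth factor of haematopoietic cells and bone, held 181, 134 and 139 CPM with vehicle, 179, 179.6 and 180.4 CPM with CX-5461, 5.77 CPM in p53null AML and 139.8 CPM in p53WT AML at 72 h. Col6a6, a collagen chain, held 60.5 to 92.9 and 2.08 CPM, the gluconeogenic enzyme Fbp1 46.9 to 70.6 and 1.65 CPM, Cgnl1, a junction protein, 22.97 to 70.3 and 1.66 CPM, and Cox6b2, a subunit of cytochrome oxidase, 39.7 to 58.1 and 1.71 CPM. None of these 5 showed a gap between the p53WT references larger than 2-fold.

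The other lower genes of this rule were erythroid or from plasma cells, and 2 p53WT libraries held far more of them than the other 4. Slc4a1, the anion exchanger of red cells, held 227, 755 and 27.2 CPM with vehicle, 3.61, 2.52 and 5.83 CPM with CX-5461 and 1.57 CPM in p53null AML, and Alas2, of haem synthesis, 106, 377 and 10.6, then 3.4, 5.78 and 4.73, and 1.37 CPM. The summed level of the erythroid markers, 23 of which were in the p53WT table, was 6296, 21017 and 838 CPM in the 3 vehicle libraries, 489.9 to 701 CPM with CX-5461, 1215 CPM over 25 markers in p53WT AML at 72 h and 264 CPM over 11 markers in p53null AML. All 11 in both tables were lower, with a median of -4.84, or -1.36 without p53WT vehicle libraries 1 and 2. Without p53WT vehicle libraries 1 and 2 the differences of Slc4a1 and Hbb-bs were -2.64 and -1.36, and those of Alas2 and Igkc -2.16 and -3.70. Igkc, the kappa light chain of B and plasma cells, followed the same libraries, at 99.1, 173 and 15.7 CPM with vehicle, 18.2, 10.6 and 15.5 CPM with CX-5461 and 1.15 CPM in p53null AML. GFP-negative red cell precursors and plasma cells are cells that the sort should remove, and how their RNA entered these libraries was not tested.

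Markers of other marrow cells were read in the same way. Of 5 B and plasma cell markers in both 10 h tables, 3 were lower and 1 higher. The higher one was Cd22 (3.79 CPM in p53WT and 11.2 CPM in p53null AML). A further 4 were in the p53null table alone and 3 in the p53WT 10 h table alone. Dendritic cell markers were higher at 3 of 5 in both tables, and 6 more were in the p53null table alone, with a summed level of 392.1 CPM against 99.5 to 139.8 CPM over the p53WT libraries. Flt3, Itgax and Tcf4 were the 3. The 6 in the p53null table alone were not alike. Cox6a2 held 70.1 CPM in p53null AML, and the p53WT 72 h table had no row for it either. The plasmacytoid marker Siglech (2.05 CPM) and the conventional dendritic cell factor Zbtb46 (1.94 CPM) were near the lowest level listed. T and NK cell markers summed to 22.5 CPM in p53null AML and to 9.36 to 53.5 CPM over the p53WT libraries. Among the 2 in both 10 h tables, Lck was higher (2.71 CPM in p53WT and 5.96 CPM in p53null AML) and none lower. The difference of Lck was 1.14, and 0.42 at vehicle level. A further 3 were in the p53null table alone and 4 in the p53WT 10 h table alone, such as Cd3d (1.62 CPM). Cd3e was in neither table. Of the stromal and endothelial markers 2 of 4 were higher, namely Lpl, lipoprotein lipase (5.83 to 10.4 and 66.5 CPM), and Pdgfrb (1.43 to 4.83 and 9.01 CPM). A further 1, Cxcl12, was in the p53WT 10 h table (mean 4.39 CPM) and not in the p53null table. Whether admixed cells have a part in the differences of MHC, monocyte and progenitor genes was not tested.

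Genes with a row in only 1 of the 2 tables numbered 982 for p53null and 800 for p53WT AML at 10 h. Most were low, with a median of 2.36 CPM and 2.01 CPM. Of the 70 pseudogenes at 10 CPM or more in the p53null table alone, all 70 were also in the p53WT 72 h table, so that the p53WT 10 h table stood apart there. Rps6-ps1, Rpl30-ps8, Rpl27a-ps1, Rpl17-ps1 and Rpl12-ps1 were such cases, at 61.8 to 267 CPM in p53null AML and 40.8 to 165 CPM in p53WT AML at 72 h. Among protein-coding genes 53 of 589 reached 10 CPM in the p53null table alone, and 16 of these 53 had a row at 72 h. The highest were Slc17a2, a phosphate transporter (124 CPM), Cdh17, a cadherin (81.9 CPM), Trib3, a stress-induced pseudokinase (70.9 CPM, and 1.28 CPM in p53WT AML at 72 h), and Cox6a2, a cytochrome oxidase subunit (70.1 CPM). Of 546 protein-coding genes in the p53WT table alone, 89 reached 10 CPM, and all 89 were also in the p53WT 72 h table. The highest were Ces1d, a carboxylesterase (85.5 to 125 CPM over the 6 libraries, 95.4 CPM at 72 h), Vill (77.2 to 90.7 and 82.1 CPM), the amino acid transporter Slc36a4 (75.2 to 86.2 and 77.6 CPM), Sec16b (65.1 to 94.9 and 73.5 CPM), the histamine-degrading enzyme Hnmt (58.4 to 76.2 and 79.8 CPM) and Dock1, an activator of RAC (42.6 to 53.5 and 51.3 CPM). Sdk1, Adgrb1 and Fnbp1l followed at 42.8 to 46.8 CPM in the authors' deposited means, and Car2 (4.41 to 279.5 CPM) followed the erythroid markers. The absence of a gene from the p53null table gives no level for it, since the sources used here do not state how listed genes were chosen.

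No chromosome stood out among the autosomes. Over protein-coding genes at 5 CPM or more in all 3 tables, the medians of the 19 autosomes lay between -0.12 and 0.01 against p53WT AML at 10 h and between -0.04 and 0.06 against 72 h. Of the nuclear chromosomes X was lowest, at -0.25 and -0.14 over 263 genes. Xist, the RNA that silences 1 X chromosome in female cells, was at 537 to 1327 CPM over the p53WT libraries and 996 CPM in p53null AML, and none of the Y-linked genes on the list was in either 10 h table. Ddx3y, a Y-linked helicase, had a row at 72 h alone (2.25 CPM). Of the imprinted genes, Igf2r, the mannose 6-phosphate receptor that clears IGF2, was far lower, at 28.2, 50.2 and 54.2 CPM with vehicle, 46.2, 48.9 and 58.1 CPM with CX-5461, 1.96 CPM in p53null AML and 35.3 CPM in p53WT AML at 72 h. Cdkn1c, an imprinted cell cycle inhibitor, held 12.9 to 17.3 and 4.87 CPM.

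**Figure D5:**
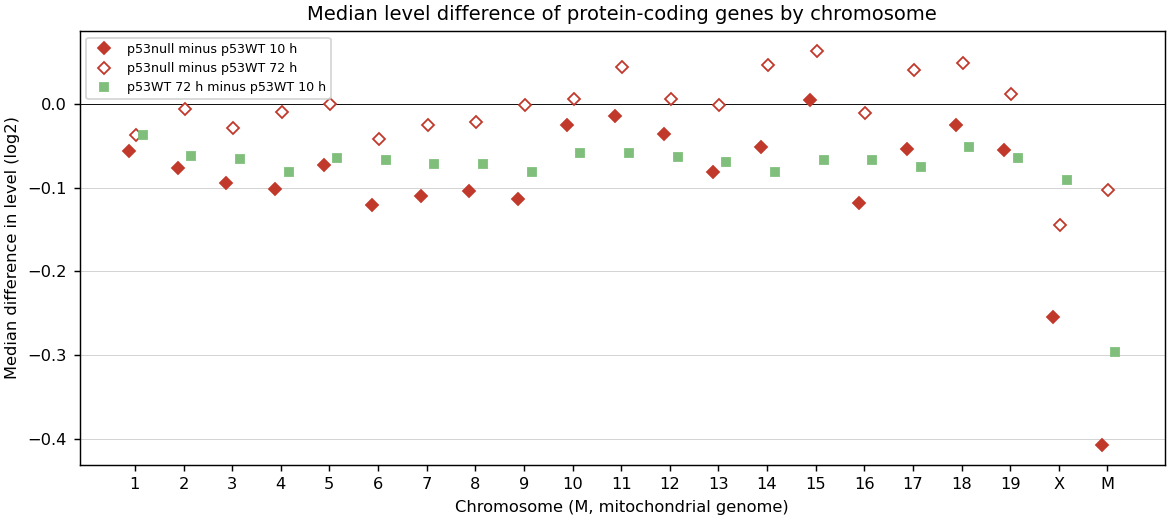
Median difference in level (log2) of protein-coding genes on each chromosome; filled diamonds, p53null minus p53WT 10 h; open diamonds, p53null minus p53WT 72 h; squares, p53WT 72 h minus p53WT 10 h. The autosomes lie between -0.12 and 0.06 in the comparisons with p53null AML, X lies at -0.25 and -0.14, and the mitochondrial genome rests on 13 genes.

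Of the tumour suppressors other than Trp53 and Cdkn2a, Wwox was lower at 10 h (21.1 to 24.7 CPM over the p53WT libraries and 8.98 CPM in p53null AML) and by less than 2-fold against 72 h (-0.88). Rb1 and Stk11 differed by -0.03 and 0.10. Among DNA methylation and chromatin regulators Idh1, the cytosolic isocitrate dehydrogenase, was the only one of 27 to reach 2-fold, at 152 to 192 CPM over the p53WT libraries and 53.8 CPM in p53null AML (-1.73, and -1.62 against 72 h). Of 21 DNA damage repair genes Parp1, which senses strand breaks, was the only one past 2-fold (102 to 143 and 260.5 CPM), and Nbn, Lig4 and Mdc1 lay lower by less than 2-fold (-0.87, -0.74 and -0.60).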

How the data were processed

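RNA sequencing libraries (TruSeq v2 kit) from sorted leukemia cells were processed by the authors with CASAVA 1.8.2, Bowtie, HTSeq and edgeR on mm9, per the submitters' processing notes. Settings, gene annotation and the treatment of reads with several matches are not given in the sources used here. The deposited files hold gene counts for the 6 p53WT libraries at 10 h, and for all 3 contrasts the authors' log2 mean level (log2 CPM), log2 fold change with CX-5461 and p-values per the file headers. Count columns carry the arm and a number from 1 to 3 that does not match the numbers in the titles, so that they were taken as unnumbered replicates of their arm.

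Tables were joined by Ensembl identifier. Library CPM were computed from the deposited counts with TMM scaling in edgeR 4.0.16 (R 4.3.3), because the deposited fold changes differed from fold changes on that scale by a median of 0.000896 and from unscaled ones by 0.0404. All genes of the count table had over 1 CPM in at least 3 libraries. Vehicle and CX-5461 levels of each genotype were split from the deposited mean and fold change (95% of p53WT genes within 0.0575 of the measured vehicle mean and 0.0609 of the measured CX-5461 mean, log2). Python 3.11.15, pandas 2.3.3, numpy 2.4.6 and matplotlib 3.10.9 were used, and the computations were tested on simulated data. Biotype, chromosome and gene order came from GENCODE vM21 (GRCm38), with no coordinates carried over. No test of genotype was made, since the p53null and 72 h tables hold no value per library.

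Genes named were the 12 largest differences in each direction at 10 CPM or more, outside the 6 p53WT libraries and 2-fold from the 72 h mean where listed, the 10 highest in only 1 table, the 3 largest differences of each list and a set always given (such as Trp53 and Cdkn1a). Other members were chosen after their values were seen, and some genes that the rule names are not reported here. Members and gene lists were chosen with earlier results of these data known.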

Additional observations from a re-analysis of the deposited data

How the results depend on the processing

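No paired analysis was possible because the p53null values used here are means over libraries and the result comes from no test. Counts of genes 2-fold higher, 2-fold lower, and higher or lower against both p53WT means moved by over 1.5 times with 3 choices. Among genes at 5 CPM or more in both tables they were 487, 458, 310 and 302, at a 1.5-fold threshold 1475, 1808, 1027 and 1209, and at a 4-fold threshold 317, 281, 148 and 165. The other 60 of 72 counts stayed within 1.5 times. Protein-coding genes alone, leaving out both p53WT vehicle libraries 1 and 2, and 4 gene lists were added after seeing the data. Against the 72 h reference the direction turned for Prg2 (-1.38) and Rpl11 (1.15), and at vehicle level for Cdkn1a (0.11). At CX-5461 level it turned for the median of B and plasma cell markers (0.050), Cd36 (0.79), Cd79a (0.55) and Rsad2 (0.56). Without both vehicle libraries 1 and 2 these 4 stood at 0.035, 0.81, 0.61 and 0.27. The cause was not tested. Of 1489 values of the 90 named genes past 2-fold, 1480 kept their direction and 1439 stayed past 2-fold. Bax was under 2-fold without any 1 of the CX-5461 libraries (-0.94 to -0.91).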

Other observations

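Genes of the ATF4 amino acid stress programme, a list added after values had been seen, were higher in p53null AML. ATF4 is a transcription factor that cells make when amino acids run short or proteins misfold, and its targets import amino acids, make serine, proline and asparagine, and charge transfer RNAs. Of 33 members in both 10 h tables, 22 were at least 2-fold higher and 1 lower (all genes: 7.34% and 7.07%), with a median of 1.57. The p53null means of 30 of the 33 lay above all 6 p53WT libraries, against 3320 of 11879 among all genes. Against the 72 h means 24 of 32 were higher and 1 lower, with a median of 1.59, and at vehicle level 24 were higher and 2 lower, with a median of 1.68. Atf4 itself differed by 0.94. As the list was chosen on these values, its counts are a description.

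Serine and proline synthesis genes stood among the furthest. Phgdh, the first enzyme of serine synthesis, held 27.2, 19.3 and 19.02 CPM with vehicle, 30.1, 25.1 and 30.1 CPM with CX-5461, 219 CPM in p53null AML and 23.3 CPM in p53WT AML at 72 h. Psat1, the next enzyme, held 115 to 168 CPM over the p53WT libraries and 469 CPM in p53null AML, and Pycr1, the last step of proline synthesis, 3.98 to 4.44 and 41.5 CPM. Slc7a11, the cystine importer, held 3.69, 4.6 and 3.49 CPM with vehicle, 3.85, 2.98 and 3.79 CPM with CX-5461 and 47.7 CPM in p53null AML, and Mthfd2, of mitochondrial one-carbon metabolism, 50.02 to 70.7 and 256 CPM. All p53WT libraries of these genes lay in a narrow band that the p53null mean did not touch. Among transcription factors of the response, Ddit3, which encodes CHOP, held 7.34 to 15.3 and 41.1 CPM and Atf5 31.6 to 38.1 and 122 CPM. Trib3, Cth (28.5 CPM), Aldh1l2 (12.9 CPM), Slc1a4 (12.3 CPM) and Atf3 (4.54 CPM) had a row in the p53null table and not in the p53WT 10 h table. Cebpb was the lower member. Ppp1r15a and Slc6a9 were the 2 members inside the p53WT range, and both followed vehicle libraries 1 and 2 (3.999, 13.5 and 1.12 CPM with vehicle and 0.29, 0.23 and 0.298 CPM with CX-5461 for Slc6a9).

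The C/EBP-ATF response element, searched as TGATGNAA on both strands, was looked for in the 250 bases before each gene's start in the RefSeq promoter table (GRCm38.p6). It was present at 8 of 30 list genes with a promoter in the table (26.7%), at 3.91% of all 27025 genes there and at 2.50% of 8577 genes of the deposited tables. The list was drawn from the ATF4 programme, so that a higher share of this element follows from how it was chosen. The share is no support for a difference between genotypes. A match is a description of the letters and not a binding site. Matches at Asns (99.2 CPM in p53WT and 192 CPM in p53null AML) and Gars (147 and 277 CPM), both under 2-fold, are not shown. Nor are those at Nupr1 (1.87 and 14.4 CPM) and Atf3, which was in the p53null table alone. A further match at Slc7a11, on the opposite strand and 47 bases before the start, is not shown either. Windows of 30 bases are shown for members with large differences, 5′ to 3′ on the strand of the gene, with the match in capitals (reverse complement where it lies on the opposite strand). They come from chr3:50443661-50443690 (- strand), chr11:120643833-120643862 (- strand), chr14:55540152-55540181 (+ strand) and chr2:119351038-119351067 (+ strand), in the order printed.
Slc7a11: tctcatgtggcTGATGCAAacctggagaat
Pycr1: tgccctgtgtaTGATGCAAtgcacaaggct
Pck2: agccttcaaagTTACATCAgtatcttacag
Chac1: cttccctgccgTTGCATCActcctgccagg
The differences of these 4 genes were 3.65, 3.28, 2.35 and 2.61.

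Cholesterol synthesis genes, also listed after values had been seen, lay on the low side. Of 21, 7 were 2-fold lower and none higher, with a median of -0.72 (2 lower and -0.48 against 72 h, and 2 lower and -0.67 at vehicle level), and 17 lay below all p53WT libraries. Among all genes 4621 of 11879 lay below them. Stard4, a sterol carrier, held 65.9, 56.8 and 68.6 CPM with vehicle, 85.5, 94.1 and 78.1 CPM with CX-5461, 20.96 CPM in p53null AML and 66.6 CPM in p53WT AML at 72 h, so that the p53null mean lay below all 6 libraries. Srebf2, the factor that drives these genes, differed by -0.16. Of 17 genes of the mitochondrial genome 1 was lower and none higher, with a median of -0.41 (-0.13 against 72 h).

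In a scan of 9541 runs of 15 neighbouring protein-coding genes, the lowest and highest runs against both p53WT means lay on chromosome 17. The run from Zfp160 to Zfp946, of zinc finger genes with similar sequence, had medians of -0.69 and -0.66. The run from Tnf to Ddr1 had medians of 0.82 and 1.07, with 7 of its 15 genes higher than in p53WT AML at 10 h. It lies in the region of MHC class I genes and may hold genes already counted in the MHC list above.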
